A study of Mus musculus with 28 samples.

Results

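A set of 8 genes encoding transcription factors that set regional identity along the gut were followed in mouse small-intestinal organoids given single ligands of the Tgfb superfamily. They were Gata4, Gata5, Gata6, Onecut2, Cdx1, Cdx2, Pdx1 and Sox2, taken by gene symbol, and all 8 were found among the 29413 genes of the BMP table and the 55416 genes of the Tgfb table. The question was whether a ligand moved these regulators, and genes typical of duodenum, ileum, colon or stomach, in a proximal or a distal direction. Such organoids are self-organizing cultures of gut epithelium. All were wild-type C57BL/6. Those treated received recombinant BMP2, BMP3, BMP4, BMP5, BMP7 or Tgfb at 500 ng/ml for 24 h. The BMP table held 4 untreated controls, 4 samples with BMP2 and 3 each with BMP3, BMP4, BMP5 or BMP7, and a separately scaled table held 3 untreated controls and 3 samples with Tgfb. The labels give neither the mouse's age, nor the segment of small intestine, nor whether numbered samples came from separate animals, so p-values here measure only the spread between these samples. The 2 mesenchymal samples of the series were not used here.

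The gut epithelium keeps its regional character through combinations of such factors. GATA4, a zinc finger protein, maintains jejunal against ileal gene expression, and GATA6 shares many of its targets along the whole small intestine. The caudal homeobox proteins CDX1 and CDX2 specify intestine against stomach. PDX1 marks duodenum and pancreas, ONECUT2 is a cut homeobox protein enriched in proximal small intestine, and SOX2 belongs to stomach and oesophagus and is normally silent in intestine.

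BMP-table values are normalized counts, that is, counts divided by a size factor of the sample. Recovered library totals ran from 21357834 to 24783053 counts, and a single count corresponds to 0.826 to 1.28 on the normalized scale. The other table holds TPM, a unit without depth. Epithelial and mesenchymal markers fitted the epithelial label. The 8 epithelial markers summed to 123600 to 139960 normalized counts in controls, while the 6 mesenchymal markers found in the BMP table summed to at most 118 in any sample. The 4 endothelial markers summed to 561 to 1032 over the samples of the BMP table, with Pecam1 at a mean of 743. Pecam1 rose by 0.40 on the log2 scale with BMP2 and by 0.49 with BMP4. All 8 epithelial markers rose with BMP2, BMP4, BMP5, BMP7 and Tgfb. Of all genes tested, 36.8%, 33.7%, 16.5%, 19.2% and 27.4% were called higher with these ligands, in the same order. The marker sums reached 739500 to 957300 with BMP2 and 223610 to 429000 over the BMP4, BMP5 and BMP7 samples. The part of this marker shift in the changes of the members was not tested. Id1 and Smad7, target genes of the pathway, rose with BMP2, BMP4, BMP5, BMP7 and Tgfb, by 2.28 to 4.68 on the log2 scale. With BMP3 their changes were −0.02 and −0.10. A set of 4 libraries stood apart: control replicate IV, BMP2 IV, BMP3 IV and BMP4 VI held 432 to 4140 normalized counts of the gastric surface mucous genes Gkn1, Gkn2 and Muc5ac summed, against 0 to 51.6 in the other 16. Leaving these 4 out gave 2 changed members in place of 3 with BMP2, and the same counts with the other ligands against control.

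In untreated organoids the members differed widely in level. Per kilobase of the longest GENCODE M21 transcript, control means in the BMP table were 1291 normalized counts for Cdx1, 941 for Cdx2, 765 for Gata4, 476 for Gata6, 316 for Onecut2, 249 for Gata5 and 182 for Pdx1. In the controls of the Tgfb table, TPM means were 87.2 for Cdx1, 79.3 for Gata4, 69.4 for Cdx2, 35.9 for Gata6, 12.4 for Gata5, 9.08 for Onecut2 and 0.627 for Pdx1. Sox2 was at or near 0 in both. After centring both scales on the median of 11502 genes, Pdx1 stood 4.45 log2 units and Onecut2 1.39 log2 units higher in the BMP table's controls than in the Tgfb table's controls. The quartiles of all genes were −0.48 and 0.32. These scales come from separately normalized tables, so this difference was not tested.

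**Figure D1:**
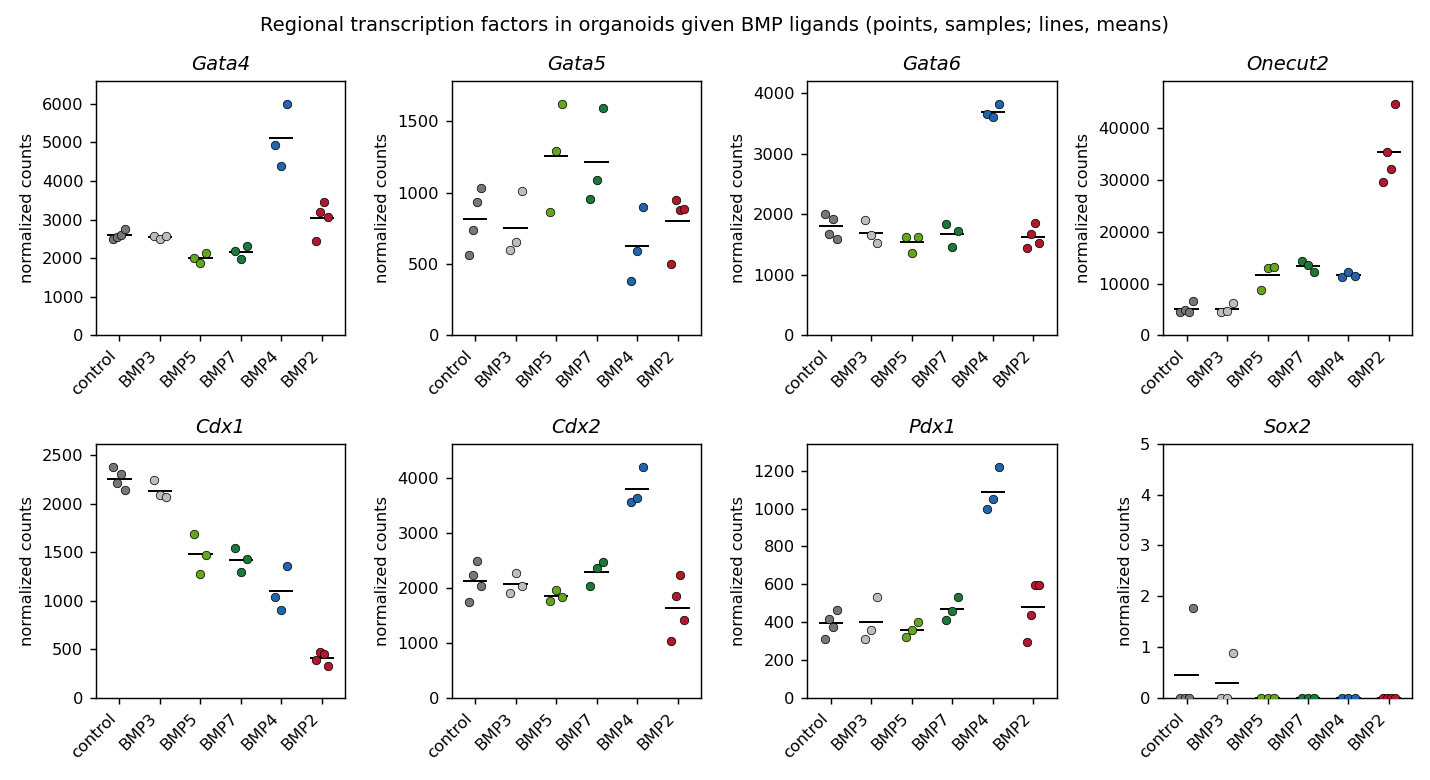
Normalized counts of the 8 members (vertical axes from 0) in each sample of the BMP table, by group on the horizontal axis; points are samples and lines are group means. Gata4, Gata6, Cdx2 and Pdx1 stand highest with BMP4, Onecut2 is highest and Cdx1 lowest with BMP2, and Sox2 is at 0 in 18 of 20 samples.

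Cdx1, the caudal factor that is also a Wnt target, was lower with every ligand except BMP3. Controls II, III, VI and IV held 2380, 2210, 2310 and 2140 normalized counts (2260 ± 106, SD, n = 4). BMP2 II, III, VI and IV held 392, 476, 454 and 334 (414 ± 64.1, SD, n = 4), a mean 5.46-fold below the controls. All 4 BMP2 samples lay below every sample of the other groups. BMP4 samples held 1040, 907 and 1360 (II, III and VI), BMP5 samples 1690, 1280 and 1470, and BMP7 samples 1540, 1300 and 1430. All 9 lay below every control, and the groups BMP5, BMP7 and BMP4 overlapped their neighbours in this order. On the log2 scale Cdx1 fell by 2.46 ± 0.12 (SE) with BMP2 (limma adjusted p = 3.58e-12), by 1.05 ± 0.13 with BMP4 (1.55e-06), by 0.62 ± 0.13 with BMP5 (0.00205) and by 0.67 ± 0.13 with BMP7 (0.000826). With Tgfb it went from 85.8, 91.4 and 84.5 TPM (replicates III, II and I) to 47.8, 45.8 and 42.3 TPM, a fall of 0.93 ± 0.07 (9.88e-05), and the groups did not overlap.

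Cdx2, the intestinal master regulator, moved apart from Cdx1 under BMP4. BMP4 II, III and VI held 3570, 3630 and 4200 normalized counts, above all controls at 1740, 2240, 2490 and 2040 (II, III, VI and IV). The rise was 0.84 ± 0.18 (SE) on the log2 scale (limma adjusted p = 0.000552). BMP2 samples were spread from 1030 to 2240 and overlapped the controls. There Cdx2 fell by 0.43 ± 0.17 (adjusted p = 0.0309), and this call was lost without BMP2 II (change −0.22, adjusted p 0.153), without BMP2 IV (−0.38, 0.0782), without control III (−0.40, 0.0684), without control VI (−0.35, 0.0980), without the 4 libraries with gastric transcripts (−0.39, 0.115) and with only these groups in the fit (adjusted p 0.0943). BMP5 samples held 1760, 1970 and 1840, and BMP7 samples 2040, 2370 and 2470, with changes of −0.19 (95% interval −0.57 to 0.20) and 0.12 (−0.27 to 0.50) that missed the threshold. Tgfb samples III, II and I held 48.9, 42.2 and 41.1 TPM against 76.6, 68.9 and 62.7, a fall of 0.64 ± 0.10 (0.00236).

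Gata4, the jejunal factor, rose with BMP4 and fell with BMP5 and Tgfb. Controls II, III, VI and IV held 2500, 2550, 2600 and 2750 normalized counts. BMP4 II, III and VI held 4920, 4390 and 5990, a mean 1.96-fold above them, and BMP5 held 1990, 1880 and 2130, all below the controls. Gata4 rose by 0.96 ± 0.11 (SE) with BMP4 (limma adjusted p = 4.37e-07) and fell by 0.38 ± 0.11 with BMP5 (0.0157). The BMP5 call was lost without BMP5 III (−0.34, adjusted p 0.0810). BMP7 samples at 2190, 1970 and 2310 were also all below the controls, with a change of −0.27 (adjusted p = 0.067). Same-numbered samples deviated together in that comparison, and with the replicate number as a block the value was −0.26 (adjusted p = 0.0268). The BMP7 change also passed the threshold as lower with every sample scaled to the same total (−0.34, 0.0111) and with quantile normalization (−0.41, 0.00288). It did so too with DESeq2 (−0.28, 0.0377) and with only these groups in the fit (0.0282). BMP2 samples at 2450, 3190, 3450 and 3060 overlapped the controls, and their change of 0.21 turned to −0.25 when every sample was scaled to the same total and to −0.22 with quantile normalization. It passed the threshold as higher without BMP2 II (0.31, adjusted p 0.00547), with DESeq2 (0.23, 0.0340) and with the replicate block (0.21, 0.0245). With Tgfb, Gata4 went from 74.1, 78.8 and 85.1 TPM to 63.3, 53.8 and 59.1 TPM (III, II and I), a fall of 0.43 ± 0.09 (0.00641).

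Gata6 tracked Gata4 under BMP4 and Tgfb. It held 2000, 1680, 1930 and 1590 normalized counts in controls and 3660, 3600 and 3820 with BMP4, where it rose by 1.04 ± 0.11 (SE) on the log2 scale (limma adjusted p = 2.05e-07). This was the tightest treated group for Gata6, with an SD of 114 on a mean of 3693 (n = 3). All other ligand groups of the BMP table overlapped the controls, at 1440 to 1850 with BMP2, 1360 to 1630 with BMP5 and 1460 to 1840 with BMP7. The BMP5 change of −0.23 missed the threshold (adjusted p = 0.151), and with the replicate block it was −0.27 (0.0181). With every sample scaled to the same total it was −0.27 (0.0312), and with quantile normalization −0.31 (0.0162). Tgfb samples held 29.0, 25.3 and 26.3 TPM against 35.2, 36.6 and 36.0, a fall of 0.41 ± 0.07 (0.0034). The BMP2 change of −0.15 missed the threshold (0.207), while scaling every sample to the same total gave −0.61 (1.91e-06) and quantile normalization −0.46 (9.96e-05). The noncoding gene Gata6os, named for the strand opposite Gata6, fell with BMP2, from 132 to 159 normalized counts in controls to 30.7 to 53.2. It also fell by 0.84 with BMP5 (0.00462) and by 0.99 with BMP7 (0.00093), and with BMP4 its change was 0.07 (0.770). Its overlap with Gata6 was not checked. Whether the counting used strand is not given in the sources used here, so reads of such partners cannot be told apart where they overlap.

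Gata5, the third GATA factor of the gut, did not follow the other two. It rose with Tgfb, from 12.9, 11.9 and 12.5 TPM to 30.5, 26.1 and 27.9 TPM, by 1.12 ± 0.08 (SE) on the log2 scale (limma adjusted p = 7.12e-05), while Gata4 and Gata6 fell there. In the BMP table controls spread from 560 to 1030 normalized counts, and replicate II was the lowest sample in all 6 groups. BMP5 II, III and VI held 866, 1290 and 1620 and BMP7 held 954, 1090 and 1590, and both groups overlapped the controls. Their changes of 0.62 (adjusted p = 0.153) and 0.57 (0.164) passed the threshold with the replicate block, at 0.72 (0.000451) and 0.67 (0.000618). BMP4 held 379, 589 and 900, a change of −0.44 (0.221), or −0.34 with the block (0.0291). With every sample scaled to the same total the BMP4 change was −0.84 (0.0222). In the fit without the block, no Gata5 call was made for a BMP against control. Beside its same-numbered control, Gata5 was higher in 3 of 3 numbers with BMP5 and with BMP7, and lower in 3 of 3 with BMP4.

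Onecut2 rose with every ligand except BMP3. Controls II, III, VI and IV held 4480, 4910, 4570 and 6560 normalized counts (5130 ± 971, SD, n = 4). BMP2 held 29600, 35500, 32200 and 44700 (35500 ± 6591, SD, n = 4), a mean 6.92-fold above the controls. BMP4 held 11200, 12200 and 11500, BMP5 held 8700, 13100 and 13200, and BMP7 held 14300, 13600 and 12300. These groups lay between controls and BMP2 and overlapped neither. BMP3 samples, at 4500, 4670 and 6280, overlapped the controls. On the log2 scale Onecut2 rose by 2.79 ± 0.16 (SE) with BMP2 (limma adjusted p = 1.55e-11), 1.20 ± 0.17 with BMP4 (6.24e-06), 1.18 ± 0.17 with BMP5 (5.27e-05) and 1.40 ± 0.17 with BMP7 (6.05e-06). With Tgfb it went from 9.27, 8.40 and 9.56 TPM to 62.1, 56.7 and 65.9 TPM, 6.78-fold between the means and 2.63 ± 0.08 on the log2 scale (5.16e-06).

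Pdx1, the duodenal and pancreatic homeobox factor, rose with BMP4. Controls II, III, VI and IV held 313, 419, 375 and 467 normalized counts, and BMP4 II, III and VI held 999, 1050 and 1220, a mean 2.77-fold above them. The rise was 1.48 ± 0.22 (SE) on the log2 scale (limma adjusted p = 9.76e-06), and the groups did not overlap. BMP2 samples, at 296, 437, 594 and 599, spread on both sides of the controls, with a change of 0.25 (adjusted p = 0.273) that was 0.46 without BMP2 II (0.0258). The BMP2 change also passed the threshold with quantile normalization (0.44, 0.0499) and with the replicate block (0.25, 0.0408). BMP7 samples at 412, 460 and 532 changed by 0.26 (0.388), or 0.37 with the replicate block (0.0173). BMP5 samples held 321, 358 and 402, and replicate II was again the lowest sample of every group. Pdx1 averaged under 1 TPM in the Tgfb table and was outside its fit: controls III, II and I held 0.735, 0.379 and 0.766 TPM, and Tgfb samples 1.73, 0.645 and 1.72. These groups overlapped, and an exact two-sided permutation test gave p = 0.3, where 3 against 3 cannot go below 0.1. Plut, a noncoding gene that overlaps Pdx1 on the other strand in GENCODE M21, also rose with BMP4, to 278 to 504 normalized counts from 67.5 to 114 in controls (2.09 ± 0.23, adjusted p = 2.75e-07), and the partners cannot be told apart for the reason given for Gata6os.

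Pdx1 and Cdx2 both lie on mouse chromosome 5 and both rose with BMP4, so their RefSeq promoters are shown to let their sequences be compared. Each runs from 250 bases before to 50 bases after the gene's start in GRCm38.p6, at chr5:147269847-147270146 (plus strand) for Pdx1 and chr5:147307200-147307499 (minus strand) for Cdx2. Gata5, at chr2:180334630-180334929 (minus strand), is shown because it did not rise with them. Capitals mark matches to the SMAD box CAGAC on either strand.
Pdx1: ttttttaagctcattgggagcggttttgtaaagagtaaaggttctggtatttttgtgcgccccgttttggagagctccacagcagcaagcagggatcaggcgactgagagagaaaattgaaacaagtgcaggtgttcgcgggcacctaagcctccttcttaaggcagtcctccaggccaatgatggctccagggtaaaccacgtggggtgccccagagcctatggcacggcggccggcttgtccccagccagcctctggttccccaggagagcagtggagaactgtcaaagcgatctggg
Cdx2: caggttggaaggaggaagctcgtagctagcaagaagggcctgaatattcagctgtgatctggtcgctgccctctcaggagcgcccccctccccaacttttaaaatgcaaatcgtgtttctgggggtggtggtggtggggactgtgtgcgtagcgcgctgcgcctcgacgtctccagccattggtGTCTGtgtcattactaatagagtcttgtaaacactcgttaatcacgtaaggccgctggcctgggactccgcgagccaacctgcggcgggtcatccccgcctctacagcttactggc
Gata5: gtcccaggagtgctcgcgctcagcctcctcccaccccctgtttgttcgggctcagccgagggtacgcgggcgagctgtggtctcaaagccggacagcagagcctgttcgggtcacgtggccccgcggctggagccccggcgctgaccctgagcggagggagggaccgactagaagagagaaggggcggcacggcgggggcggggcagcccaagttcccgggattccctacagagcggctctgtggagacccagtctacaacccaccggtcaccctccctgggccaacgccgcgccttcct
The windows were also searched on both strands for GGCGCC, an element found in promoters that respond to BMP. A core motif of GATA proteins was written as AGATAA. The core motif of the caudal proteins was written as TTTATG. The Cdx2 window held 1 match to CAGAC, printed in capitals in its reverse complement GTCTG, and the Pdx1 and Gata5 windows held no match to any of the 4 motifs. Among 32851 promoters of the same length, 49.6% hold CAGAC, 11.9% GGCGCC, 11.2% AGATAA and 11.9% TTTATG. The GC content of the windows was 55.3% for Pdx1, 57.3% for Cdx2 and 69.7% for Gata5, beside a median of 52.7% over all promoters. The files' own build is GRCm39, so these positions are not those of the counted annotation.

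Sox2, the foregut factor, was not detected in 18 of 20 BMP-table samples. The exceptions were control IV with 2 counts and BMP3 IV with 1 count, both among the libraries with gastric transcripts. A count of 0 allows up to 3 counts, or 2.48 to 3.84 normalized counts across samples, which covers counting error only. In TPM, 1 control was listed at 0.025 TPM and the other 5 samples at 0. No ligand brought Sox2 above the level that a count of 0 allows.

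**Figure D2:**
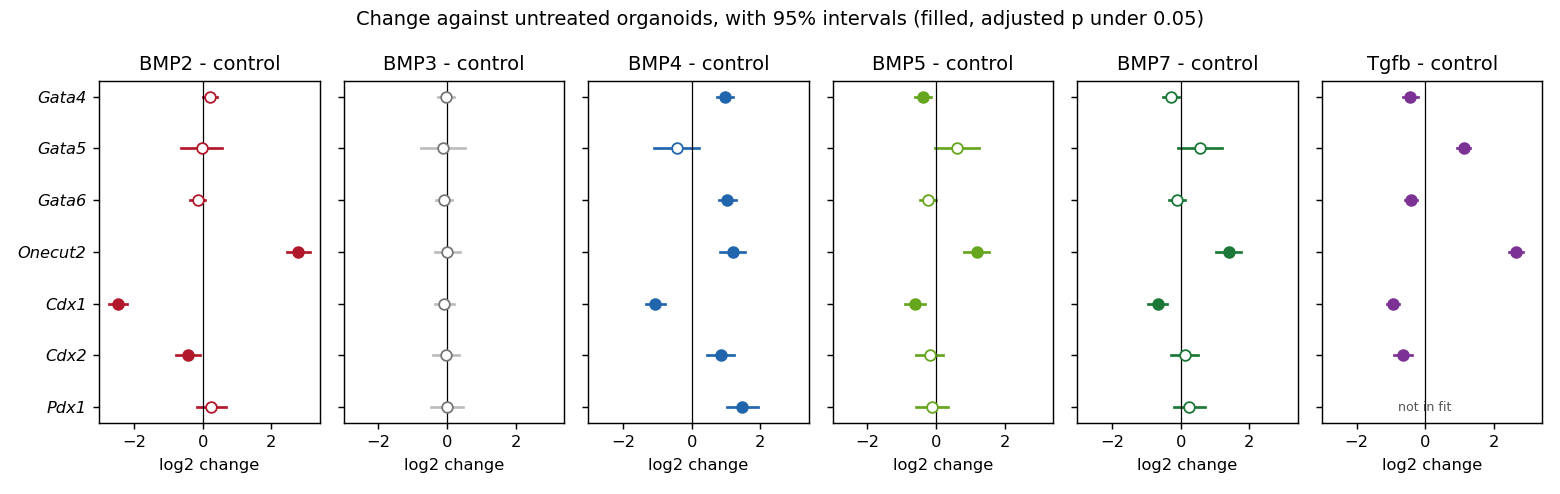
Log2 change against untreated organoids (horizontal axes) of the 7 members that could be fitted, one panel per ligand, with 95% intervals from limma; filled points had an adjusted p under 0.05. Onecut2 lies to the right and Cdx1 to the left of 0 for every ligand but BMP3, while Gata4, Gata6, Cdx2 and Pdx1 lie clearly to the right with BMP4.

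Counted by ligand, 7 members could be fitted in the BMP table and 6 in the Tgfb table. BMP4 changed 6 of 7, with 5 higher (Gata4, Gata6, Onecut2, Cdx2, Pdx1) and Cdx1 lower, where 65.1% of all 14746 genes tested were called (33.7% higher, 31.4% lower). BMP2 changed 3 of 7, Onecut2 higher and Cdx1 and Cdx2 lower, where 75.1% of all genes were called (36.8% higher and 38.4% lower). BMP5 changed 3 (Onecut2 higher, Gata4 and Cdx1 lower) beside 26.3% of genes (16.5% higher, 9.87% lower), and BMP7 changed 2 (Onecut2 higher, Cdx1 lower) beside 32.4% (19.2% higher, 13.2% lower). With the replicate number as a block, both counts became 5 of 7, while the calls over all genes went from 3884 to 5738 for BMP5 and from 4773 to 6689 for BMP7. Tgfb changed 6 of 6, with Onecut2 and Gata5 higher and Gata4, Gata6, Cdx1 and Cdx2 lower, beside 56.7% of 12959 genes (27.4% higher, 29.3% lower). The median member change was 0.96 under BMP4, where the median of all genes was 0.04. It was −0.03 under BMP2 (all genes −0.03), −0.19 under BMP5 (−0.03), 0.12 under BMP7 (−0.05) and −0.42 under Tgfb (−0.04). Comparisons within the BMP table share the control samples.

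BMP3 changed none of the 7 members, beside 0% of all genes under limma. Across all genes 110 had an unadjusted p under 0.05, and edgeR called 0 genes and DESeq2 called 1 gene. Member changes with BMP3 ran from −0.11 (Gata5, 95% interval −0.76 to 0.53) to 0.01 (Onecut2, −0.35 to 0.37). Every member's BMP3 values overlapped its control values.

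**Figure D3:**
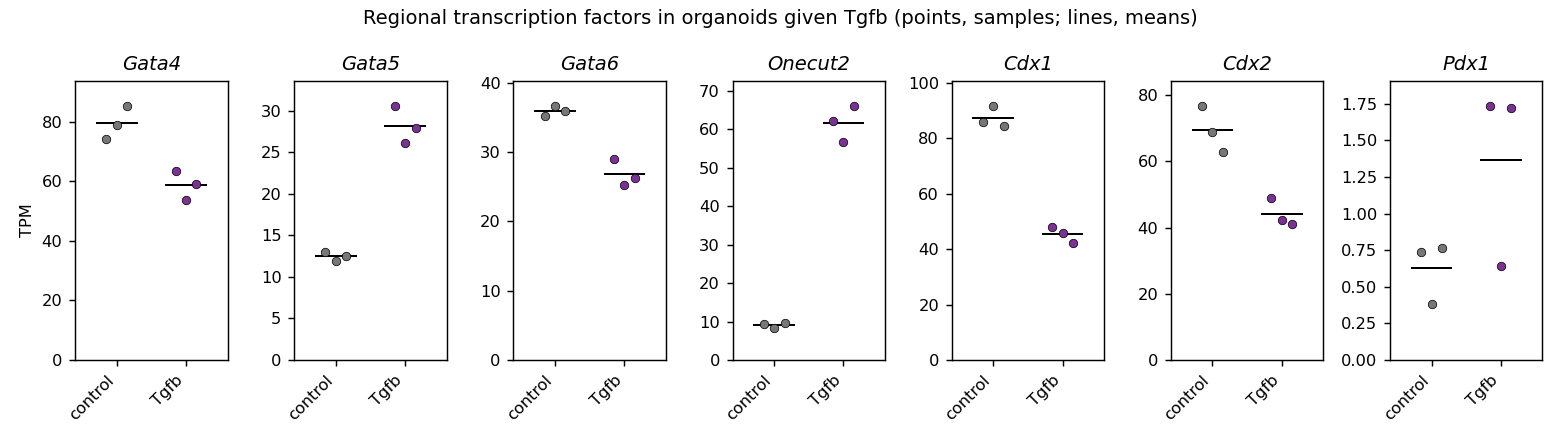
TPM of 7 members (vertical axes from 0) in the 3 control and 3 Tgfb samples; points are samples and lines are means. Onecut2 and Gata5 lie higher and Gata4, Gata6, Cdx1 and Cdx2 lower with Tgfb without overlap, and Pdx1 overlaps.

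In direct comparison, BMP2 and BMP4 differed in most members and in most genes at large. Between them, 6 of 7 members differed, beside 66.8% of all genes (33.4% higher, 33.4% lower). Gata4, Gata6, Cdx1, Cdx2 and Pdx1 were lower and Onecut2 higher with BMP2. The differences, BMP2 minus BMP4 on the log2 scale, were −1.19 ± 0.11 (SE) for Gata6 (limma adjusted p = 2.7e-08), −1.40 ± 0.13 for Cdx1 (3.1e-08), −1.27 ± 0.18 for Cdx2 (6.75e-06), −1.23 ± 0.22 for Pdx1 (7.13e-05), −0.75 ± 0.11 for Gata4 (8.1e-06) and 1.59 ± 0.17 for Onecut2 (1.5e-07). Cdx1 was thus lower with either ligand than in controls, and lower still with BMP2. Gata5 differed by 0.41 (95% interval −0.23 to 1.06).

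BMP7 also differed from BMP4 in 6 of 7 members, beside 59.8% of all genes (28.4% higher, 31.4% lower). BMP4 held more Gata4 (1.23 ± 0.12, SE, adjusted p = 6.73e-08), Gata6 (1.15 ± 0.12, 2.1e-07), Pdx1 (1.22 ± 0.23, 0.000196) and Cdx2 (0.73 ± 0.20, 0.00379), and less Gata5 (−1.01 ± 0.33, 0.0126) and Cdx1 (−0.39 ± 0.14, 0.0267). Onecut2 was not called (−0.20, adjusted p = 0.357). Its difference passed the threshold with every sample scaled to the same total (−0.53, 0.0256) and with quantile normalization (−0.72, 0.00604). The Gata5 call was lost without BMP4 II (−0.70, 0.0894) or BMP7 VI (−0.80, 0.0671). The Cdx1 groups overlapped, and its call was lost without BMP4 II (−0.35, 0.0774), BMP4 III (−0.26, 0.159), BMP7 II (−0.33, 0.0975) or BMP7 VI (−0.38, 0.0580), and with only these groups in the fit (0.0682). Against BMP7, BMP2 held more Onecut2 (1.39 ± 0.17, 1.31e-06) and Gata4 (0.49 ± 0.11, 0.000855) and less Cdx1 (−1.79 ± 0.13, 3.03e-09) and Cdx2 (−0.54 ± 0.18, 0.016), 4 of 7 beside 62.8% of genes (31.4% higher, 31.4% lower). The Gata4 difference was 0.10 (0.403) with every sample scaled to the same total and 0.19 (0.0959) with quantile normalization. The Cdx2 call was lost without BMP2 II (−0.34, 0.0549), BMP7 VI (−0.49, 0.0586) or the 4 libraries with gastric transcripts (−0.49, 0.0615). It was also lost with only these groups in the fit (0.0643). Gata5, not called (−0.60, 0.0974), passed with the replicate block (−0.70, 0.00017) and with the same total (−0.99, 0.00916). Gata6, not called (−0.04, 0.746), passed with the same total (−0.43, 0.000314) and with quantile normalization (−0.23, 0.0352).

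BMP5 and BMP7, which are closely related in sequence, gave no member call against each other, beside 0.0136% of all genes (0.00678% higher, 0.00678% lower). The unadjusted p was under 0.05 for 347 genes, and edgeR called 4 genes and DESeq2 called 23 genes. The difference, BMP5 minus BMP7, was −0.22 for Onecut2 (95% interval −0.61 to 0.16), 0.05 for Cdx1 (−0.25 to 0.35), −0.11 for Gata4 (−0.35 to 0.14), −0.12 for Gata6 (−0.38 to 0.13) and 0.04 for Gata5 (−0.65 to 0.73). For Cdx2 it was −0.30 (−0.72 to 0.11) and for Pdx1 −0.37 (−0.87 to 0.12). These intervals leave room for differences of either sign.

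**Figure D4:**
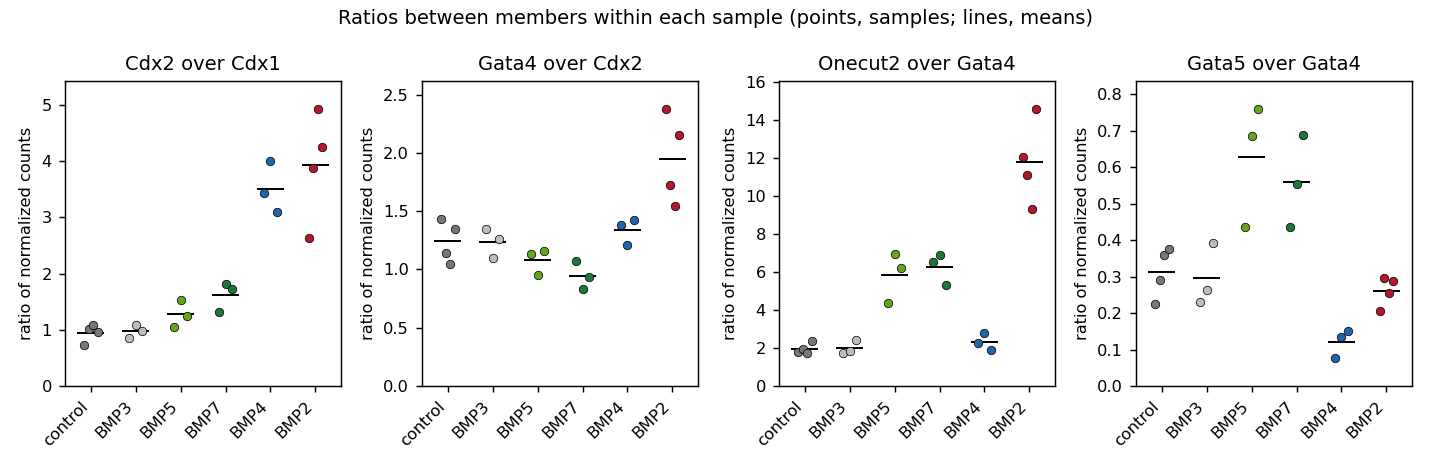
Ratios of normalized counts between members within each sample of the BMP table (vertical axes from 0), by group; points are samples and lines are means. Cdx2 over Cdx1 separates BMP2 and BMP4 from the other groups, and Onecut2 over Gata4 separates BMP2, BMP5 and BMP7 from controls and BMP4.

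Ratios within a sample do not depend on its scaling, and only their change between samples is read here because transcripts differ in length. Cdx2 over Cdx1 was 0.731 to 1.08 in controls, 2.63 to 4.93 with BMP2 and 3.09 to 4.00 with BMP4. The ratio was thus similar in range with these ligands although Cdx2 rose with only 1 of them. BMP5 samples ran from 1.04 to 1.54 and BMP7 samples from 1.32 to 1.82. Gata4 over Cdx2, a jejunal factor over a pan-intestinal one, was 1.04 to 1.44 in controls, 1.54 to 2.38 with BMP2, 1.21 to 1.43 with BMP4 and 0.831 to 1.07 with BMP7. BMP2 samples lay above all controls and BMP4 samples within their range. Onecut2 over Gata4 ran from 1.76 to 2.39 in controls, 9.33 to 14.6 under BMP2, 5.32 to 6.90 under BMP7, 4.37 to 6.97 under BMP5 and 1.92 to 2.78 under BMP4, the group that overlapped the controls. Gata5 over Gata4 was 0.224 to 0.375 in controls, 0.436 to 0.688 under BMP7, 0.435 to 0.761 under BMP5 and 0.0770 to 0.150 under BMP4, with no overlap between any of these treated groups and the controls. In the Tgfb table the same ratio went from 0.147 to 0.175 up to 0.473 to 0.486.

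Other transcription factors of the endoderm, a list of 30 of which 22 were tested in the BMP table and 20 in the Tgfb table, moved in both directions. BMP4 raised 12 and lowered 6, BMP2 raised 12 and lowered 6, BMP5 raised 7 and lowered 3, BMP7 raised 9 and lowered 4, and Tgfb raised 9 and lowered 7. The shares of all genes called, in the same order, were 65.1%, 75.1%, 26.3%, 32.4% and 56.7%. Hnf4a, a nuclear receptor that drives enterocyte genes, rose with BMP4 as Gata4 did, by 1.01 on the log2 scale, and its paralog Hnf4g rose by 2.34 with BMP4 and fell by 1.76 with BMP2. Isx, an intestine-specific homeobox gene known as a Cdx2 target, rose by 1.31 with BMP4 and fell by 0.89 with BMP2. Zfpm1, a cofactor of GATA proteins, fell by 0.65 with BMP2 and by 0.50 with Tgfb. Klf4, a differentiation factor, and Maf, a bZIP factor, rose with BMP4, by 3.94 and 5.21. Foxa1, a forkhead factor of the endoderm, rose by 2.87 under BMP2, 2.03 under Tgfb, 1.36 under BMP7 and 1.19 under BMP5, and fell by 0.59 under BMP4. Gata2 and Gata3, chosen for mention after their values were seen, are GATA factors of blood and other tissues. Gata3 held 0.83 to 1.78 normalized counts in controls and 64.7 to 96.2 with BMP2, and Gata2 0 to 0.887 and 13.6 to 56.3.

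Most tested genes of the proximal and ileal lists rose with BMP4, where 65.1% of all genes were called (33.7% higher, 31.4% lower). Of 18 proximal genes, 17 were tested. BMP4 raised 14 and lowered 0 of them (median change 2.74), with the lactase gene Lct from 104 to 392 normalized counts in controls to 7810 to 11400, the fatty acid binding gene Fabp1 from 10800 to 19600 to 57000 to 109000, and the folate transporter Slc46a1 higher by 3.41 ± 0.20 (SE, limma adjusted p = 1.06e-10). Of 12 ileal genes, 11 were tested, and BMP4 raised 9 and lowered 1 of these as well (median 1.98). The bile acid exporter genes Slc51a and Slc51b rose by 2.45 and 3.31, the bile acid importer Slc10a2 by 0.77, and Cubn, the vitamin B12 receptor, by 6.26. Fabp6, the ileal bile acid binding gene, was outside the fit and held 1.2 to 6.84 normalized counts with BMP4 and 3.32 to 7.1 in controls. Beside these, BMP4 raised 4 of 5 enterocyte markers and lowered none, among them Sis by 1.80, and the 5 crypt stem markers fell. Lgr5, a Wnt-target stem cell receptor, fell by 7.37. Lists overlap in Alpi, and the part of enterocyte and crypt content in the regional changes was not tested. In such bulk samples, fewer cells of a type and less RNA per cell cannot be told apart.

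With BMP2 the regional lists split, where 75.1% of all genes were called (36.8% higher, 38.4% lower). Of the proximal genes 5 rose and 6 fell (median −0.26), or 2 and 8 with every sample scaled to the same total and 3 and 6 with quantile normalization. Ada, a purine enzyme high in duodenum, rose by 4.58 while Fabp1 fell by 2.91 and Lct by 2.31. Of the ileal genes 4 rose and 7 fell (median −1.01). Pyy, an ileal and colonic peptide hormone, went from 0.83 to 2.66 normalized counts in controls to 7540 to 14000, and Slc51a fell by 2.77. BMP2 lowered 4 of 5 enterocyte markers and raised 1, and it lowered all 5 crypt stem markers. The part of both sets of markers in these values was not tested.

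For BMP5 and BMP7 the calls on proximal and ileal genes went in both directions. Beside 26.3% of all genes, BMP5 raised 1 proximal gene and lowered 2 (2 and 3 with the replicate block), and raised 3 ileal genes and lowered 1, or lowered 4 with the replicate block. Beside 32.4% of all genes, BMP7 raised 2 proximal genes and lowered 3, and raised 3 ileal genes and lowered 3, or 5 with the replicate block. Pyy stood at 48.4 to 537 normalized counts with BMP5 and 298 to 562 with BMP7. Beside 56.7% of all genes, Tgfb raised 10 and lowered 6 of 17 proximal genes (median 0.58). Tgfb raised 2 and lowered 4 of 10 ileal genes (median −0.05). Slc40a1, the iron exporter of the duodenum, rose there by 2.12 and Cybrd1, an iron reductase, by 2.13, while Lct fell by 1.51 and Fabp1 by 1.57. Pyy went from 0.611 to 0.741 TPM to 328 to 622 TPM. Enterocyte markers were lowered in 4 of 5 cases by each of BMP5, BMP7 and Tgfb, and Tgfb raised 1. Crypt stem markers were lowered in 1 of 5 cases by BMP5, 3 of 5 by BMP7 and 5 of 5 by Tgfb. The part of these enterocyte and crypt markers in the regional values was not tested.

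**Figure D5:**
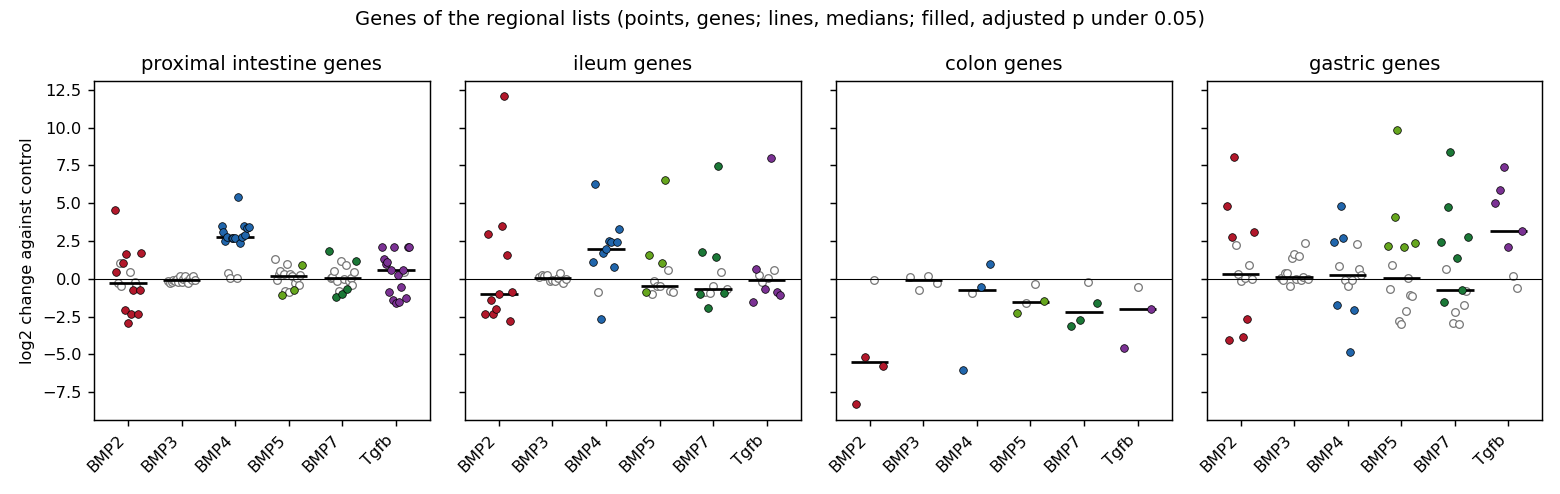
Log2 change against untreated organoids (vertical axis) of the tested genes of 4 regional lists, by ligand; points are genes, filled where the adjusted p was under 0.05, and lines are medians. With BMP4 the proximal and the ileal medians both lie above 0, at 2.74 and 1.98, and with BMP2 the points spread to both sides.

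Of 12 colonic genes only 4 were tested in the BMP table and 3 in the Tgfb table. Aqp4, a water channel, passed the test with a lower level under 5 ligands, at −8.30 for BMP2, −6.05 for BMP4, −4.55 for Tgfb, −3.11 for BMP7 and −2.25 for BMP5. The chloride exchanger Slc26a3 fell with the same ligands except BMP4, where it rose by 0.97. Of 16 gastric genes 13 were tested in the BMP table. BMP2 raised 4 and lowered 3, BMP4 raised 3 and lowered 3, and BMP5 raised 5 and lowered none. BMP7 raised 5 and lowered 2, and Tgfb raised 5 of 7 and lowered none. Over all genes the shares called, in the same order, were 75.1%, 65.1%, 26.3%, 32.4% and 56.7%. The median change of the tested gastric genes with BMP2 was 0.30. Without the 4 libraries with gastric transcripts, BMP2 raised 5 and lowered 3, and BMP7 raised 5 and lowered 1. Ctse, which encodes cathepsin E, went from 52.3 to 235 normalized counts in controls to 21700 to 29900 with BMP2, and Anxa10 from 1180 to 1840 to 36000 to 47700. These rises stood beside Sox2 at 0 in all 4 BMP2 samples.

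The genes most similar to each member were found by Pearson r of log2 values over the 20 samples of the BMP table, among 11849 other genes with a mean of at least 50. The samples share treatments, so r is a description. For Onecut2 they included Fgd6 (0.990) and Trip12 (0.985), and for Cdx1 they were Aldh5a1 (0.990), Ppa2 (0.989) and Clpp (0.989). Gata4 was most like Stk16 (0.971), Ugdh (0.961) and Inpp5a (0.960), and Gata6 most like Tm9sf2 (0.978), Slc25a51 (0.976) and Slc25a3 (0.975). Cdx2 was most like Wdr11 (0.943), Isx (0.937) and Ufsp2 (0.935), Pdx1 like Dnase1 (0.969), Rfxank (0.958) and 1810055G02Rik (0.951), and Gata5 like Cul7 (0.908), Pml (0.891) and Phlda2 (0.853). Among the members themselves, r was −0.95 between Onecut2 and Cdx1, 0.87 between Gata4 and Gata6, 0.86 between Gata4 and Pdx1, 0.78 between Cdx2 and Pdx1, and −0.45 between Gata4 and Gata5.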

How the data were processed

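RNA was measured by poly(A) RNA-seq in 20 organoid samples of the BMP table and 6 of the Tgfb table. Reads were processed with Trim Galore, Salmon and DESeq2 against GRCm39, per the submitters' processing notes, which give no versions. The deposited BMP values are a normalized signal, counts divided by 1 size factor per sample, from which whole reads were recovered: of 180721 values of at most 20 reads, 100% were whole within 0.1 read. The deposited TPM values of the Tgfb table sum to 1000000 per sample, and their depth is unknown.

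Tests used limma 3.58.1 in R 4.3.3 with a mean-variance trend, on log2(value + 1), two-sided, with Benjamini-Hochberg adjustment over all genes tested and a threshold of 0.05. A single fit held the 6 groups of the BMP table (mean of at least 10, 14746 genes) and another the Tgfb table (mean of at least 1 TPM, 12959 genes). Fold changes on this scale understate the change of low genes. Alternatives were other pseudocounts, filters and scalings, the replicate block, edgeR 4.0.16 and DESeq2 1.42.0 on recovered reads, leaving out each replicate and, chosen after seeing the data, leaving out 4 libraries with gastric transcripts. Deviations of same-numbered samples correlated at over 0.1 in every pair for BMP3, BMP4, BMP5 and BMP7 against control. The same held for BMP5 against BMP7 (lowest, 0.116) and BMP4 against BMP7. This pairing was read from the data and not from the labels. The main fit and the calls and counts from it do not use it, and values with the replicate block are given as an alternative. The members and gene lists were chosen with earlier results of these data known. Genes named from a list were, per ligand, the 3 past the threshold with the smallest p among those with a mean of at least 50 normalized counts or 10 TPM, and a set of classical regional genes by symbol; their values are given under any ligand. More than 1 sequencing run was used and samples are not assigned to runs, so a run effect was not tested. Some genes that the rule for named genes or the likeness ranking gives are not reported here.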

Additional observations from a re-analysis of the deposited data

Results flagged for a closer look

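Gata5 in BMP2 replicate II held 501 normalized counts, far below the 881 to 949 of the other 3 BMP2 samples. Sox2 in control replicate IV held 1.77 normalized counts, or 2 counts, against 0 in the other 3 controls. Both were singled out because the gap to the nearest sample, over the group's range, exceeded Dixon's 95% limit for 4 samples. For Sox2 any count above 0 in control IV would exceed that limit, because the other 3 controls held 0. Chance alone marks about 1 in 20 groups, a rate that does not hold for such counts, and 15 groups were tested.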

How the results depend on the processing

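Of 69 member results, 36 were called, and 29 of these kept direction and call under all alternatives run. The other 7 lost the call under at least 1, and 13 uncalled results passed the threshold under at least 1. With BMP2 against control, 3 changed members became 5 with the same total in every sample, 6 with quantile normalization and 5 with the replicate block, while the calls over all genes went from 11077 to 11410, 10936 and 11858. With the block, BMP5 and BMP7 against control each gave 5 changed members. For BMP2 against control the correlations of same-numbered samples were 0.25, 0.09, 0.36 and 0.49 (II, III, VI and IV), so that III missed the limit, and for Tgfb none of the 3 passed it. Gata4 with BMP2 reversed, to −0.25 (adjusted p 0.0195) with the same total and −0.22 (0.0337) with quantile normalization, but passed as higher under 3 other alternatives (values up to 0.31, lowest adjusted p 0.00547). The same total moved the median of all genes by −0.45 with BMP2 and −0.39 with BMP4, and the calls from 5420 higher and 5657 lower to 3627 and 7783 with BMP2, and from 4964 and 4633 to 3100 and 6864 with BMP4. Cdx2 between BMP4 and BMP7 lost its call with the same total (0.40, 0.0728). The cause was not tested. With 3 or 4 samples a group, only Sox2 was limited by depth in the BMP table, and Pdx1 by its low TPM in the Tgfb table.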
